A study of Mus musculus with 4 samples.

Results

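The genes that code for the decapping enzyme, its activators, the PAN2-PAN3 deadenylase and the 5′ exonuclease XRN1 were followed across the libraries of a *Ythdf2* knockdown and rescue experiment in mouse embryonic stem cells (ESCs). The 10 genes, taken by name from the 50559 genes of the deposited table, were *Dcp2*, *Dcp1a*, *Dcp1b*, *Edc3*, *Edc4*, *Ddx6*, *Lsm14a*, *Xrn1*, *Pan2* and *Pan3*. All 10 were found, and 9 of them had a mean of at least 200 reads over the 4 libraries, as did 10817 genes in all. *Dcp1b*, at a mean of 183 reads, was the exception, so it is described below but does not enter the counts of genes called higher or lower.

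The cells were of E14, a mouse ESC line, grown on gelatin with serum replacement and leukemia inhibitory factor, and each group was 1 RNA-seq library. Control cells carried a scrambled hairpin and an empty vector (shscr+EV). Knockdown cells carried a hairpin against *Ythdf2* together with the empty vector (shYthdf2+EV), a wild-type YTHDF2 construct (shYthdf2+WT) or a mutant one that the study describes as defective in m6A binding (shYthdf2+Mut). Per the study's methods, hairpins were expressed from a U6 promoter after lentiviral infection and puromycin selection, in ESCs with a tdTomato reporter under the MERVL promoter. The labels do not say which hairpin was used, the promoter of the rescue constructs is not given in the sources used here, and the counts do not separate construct from endogenous *Ythdf2*. All 4 libraries thus came from cells with a hairpin and a vector.

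In the cytoplasm, most messenger RNAs are first shortened at the poly(A) tail. PAN2-PAN3 and CCR4-NOT do this. DCP2 then removes the 5′ cap, helped by DCP1A or DCP1B, EDC3, EDC4, LSM14A and the helicase DDX6, and XRN1 degrades the uncapped RNA from its 5′ end. Several of these proteins gather in P-bodies. YTHDF2 binds RNA that carries N6-methyladenosine (m6A) and brings CCR4-NOT to it through CNOT1. Decapping and XRN1 thus act after a step that the reader can start, whereas PAN2-PAN3 acts on the tail, as CCR4-NOT does.

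The m6A mark is mostly placed on the A of short motifs, of which GGACT (in DNA letters) is the best known. The motif was looked for on the sense strand of 1 GENCODE vM21 transcript per gene, the longest coding one. All 10 transcripts held it at least once, as did 91.5% of the transcripts of the 10512 genes with a mean of at least 200 reads and a sequence. From 1 match in *Dcp1a* to 8 in *Pan2* were found, and 4 of the 10 genes had more matches per kilobase than the median gene, which had 1.02 per kilobase. *Ddx6* had 7 matches (1.15 per kilobase). Of these, 4 lie in its 3′ UTR, in exon 14 of 14 of the transcript Ddx6-201. They are shown because *Ddx6* was the only one of the 9 genes whose log2 ratio passed the limit used below. Each is given with 10 bases on either side, 5′ to 3′, with the motif in capitals, and lies on the plus strand of mm10 at chr9:44637080-44637104, chr9:44638896-44638920, chr9:44640040-44640064 and chr9:44640207-44640231.
Ddx6 match 1: gccggaaggtGGACTagtgatggca
Ddx6 match 2: tgccaaccttGGACTgctctgccag
Ddx6 match 3: aaatttatgtGGACTttggtgagtt
Ddx6 match 4: agcctggcctGGACTctgcccctcc

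These libraries hold no measurement of m6A, so a match shows only that the letters are present. The first match begins 612 bases past the last coding base, and the last begins 3739 bases past it.

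Total counts lay between 31533129 and 35742335 reads. *Ythdf2* had 2806 reads in shscr+EV, 662 in shYthdf2+EV, 7661 in shYthdf2+WT and 6925 in shYthdf2+Mut, so the targeted gene followed the labels. The 6 ESC markers examined all had at least 200 reads on average. Their summed level was 2578 FPKM in shscr+EV, 2990 in shYthdf2+EV, 3117 in shYthdf2+WT and 2406 in shYthdf2+Mut. *Dppa5a* was the largest term, at 1150, 1460, 1606 and 912 FPKM in the same order. *Nanog* and *Zfp42* were higher in shYthdf2+Mut than in shYthdf2+WT, and the rest were lower. Of the 6 fibroblast markers, 3, *Col3a1*, *Postn* and *Lum*, had at most 5 reads in any library. The others were *Thy1* with 243 to 448 reads, *Col1a1* with 50 to 87 and *Col1a2* with 2 to 32. The summed level of 6 markers of the 2-cell-like state ran from 44.05 FPKM in shscr+EV and 53.5 in shYthdf2+WT to 146 in shYthdf2+Mut and 166 in shYthdf2+EV. The sum of 6 primitive endoderm markers was 3.58 FPKM in shYthdf2+EV, 3.28 in shYthdf2+Mut, 2.71 in shscr+EV and 2.06 in shYthdf2+WT. None of these 6 averaged 200 reads. The sum of 6 trophectoderm markers ran from 8.05 to 10.2 FPKM, and that of the fibroblast markers from 4.98 to 8.58 FPKM. The largest terms were *Eomes* (5.46 to 8.13 FPKM) and *Thy1* (4.40 to 8.17 FPKM). *Krt7* and *Hand1* were lower in shYthdf2+EV and shYthdf2+Mut than in the other libraries, while *Cdx2*, *Gata3* and *Eomes* were highest in shYthdf2+Mut. The part of these cell states in the results below was not tested. Mitochondrial genes took 8.44% of the reads in shscr+EV and 6.14 to 6.75% in the other libraries. The shYthdf2+WT library stood apart in base composition. Across 10512 genes, the log2 ratio of a gene followed the GC content of its transcript with a Spearman coefficient of 0.55 for shYthdf2+WT against shscr+EV and -0.52 for shYthdf2+Mut against shYthdf2+WT. Against shYthdf2+EV it was 0.44 for shYthdf2+WT and -0.28 for shYthdf2+Mut, and it was -0.027 for shYthdf2+EV against shscr+EV. Many ratios below are therefore also given after a correction for GC and length, called the corrected value. With 1 library per group, a difference compares 2 libraries and has no replicate check, and every interval of a ratio is a 95% Clopper-Pearson interval on read pairs. All intervals cover counting error only. In bulk RNA, fewer cells of a type and less RNA per cell cannot be told apart.

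The levels of the 10 genes were compared first, as FPKM (fragments scaled by exon length and sequencing depth). Ranges are over the 4 libraries. *Ddx6* (40.2 to 50.6 FPKM), *Lsm14a* (44.9 to 49.6) and *Edc4* (41.1 to 43.7) were the highest. The range of *Ddx6* overlapped those of both others, while *Lsm14a* lay above *Edc4* in every library. *Dcp2* came next at 21.7 to 24.97 FPKM, followed by *Dcp1a* (12.7 to 14.9), *Edc3* (10.8 to 12.3), *Pan2* (9.59 to 10.8), *Xrn1* (6.63 to 7.55) and *Pan3* (4.90 to 5.84). *Dcp1b* was last at 0.910 to 1.77 FPKM. From *Dcp2* to *Dcp1b*, the range of each gene lay below that of the gene before it. The order of these levels rests on the summed exon length of each gene. Where this is longer than the coding transcript, it lowers the FPKM. The lengths were 9305 against 4445 bases for *Pan2*, 10097 against 5541 for *Pan3* and 13213 against 10256 for *Xrn1*. They were 8363 against 6065 for *Ddx6*, 3968 against 2944 for *Lsm14a* and 4813 against 4780 for *Edc4*. The order by transcript length was not computed.

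**Figure D1:**
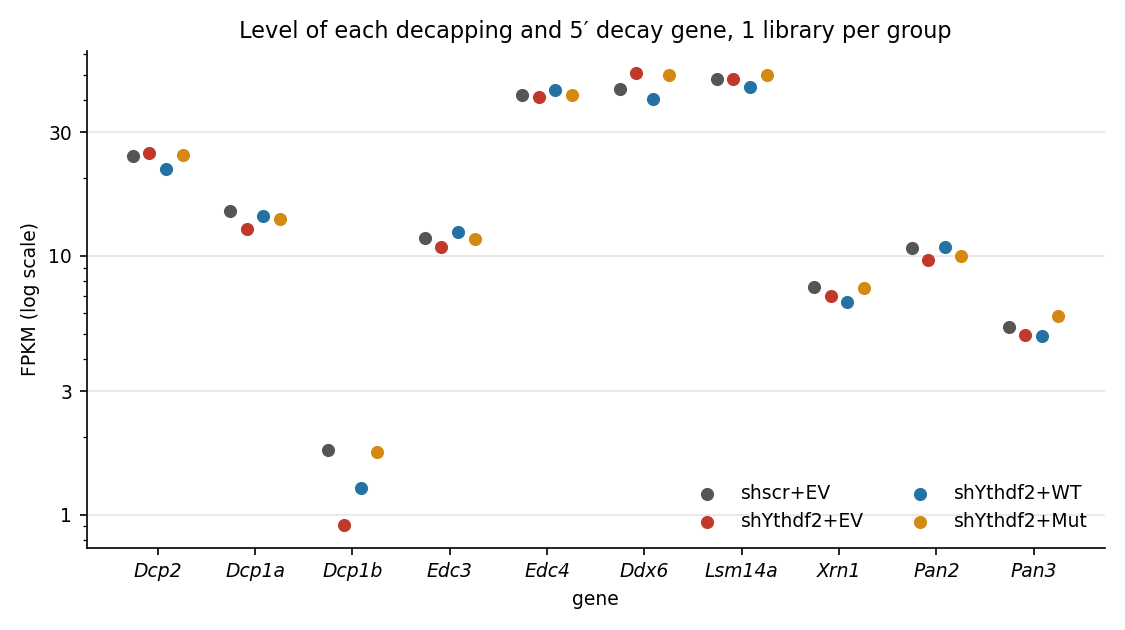
Level of each gene in the 4 libraries, in FPKM on a log axis, with 1 point per library and no error bar since no group has a replicate. *Ddx6*, *Lsm14a* and *Edc4* lie between 40.2 and 50.6 FPKM in every library, whereas *Dcp1b* lies between 0.910 and 1.77 and is the gene whose points are spread most.

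The summed level of the 10 genes was 1384 CPM (counts scaled by sequencing depth) in shscr+EV, 1397 in shYthdf2+EV, 1307 in shYthdf2+WT and 1430 in shYthdf2+Mut. For 9 of the genes the highest library exceeded the lowest by between 1.06-fold (*Edc4*) and 1.26-fold (*Ddx6*) in CPM. The highest library was 1.95-fold above the lowest for *Dcp1b*. The lowest library was shYthdf2+EV for 5 genes and shYthdf2+WT for the other 5.

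On knockdown, shYthdf2+EV against shscr+EV, none of the 9 genes had a log2 ratio of 0.32 or more in either direction, the limit used here for calling a gene higher or lower. Of all 10817 genes, 16.2% were called higher and 15.1% lower. The median log2 ratio of all 10 genes was -0.11, and 8 of the 10 lay below 0 (6 by the corrected values). For all 10817 genes the median was 0.00097, and 5397 lay below 0. The median of the corrected values of the 10 genes was -0.047. The ratio of their summed counts was 0.014 on the log2 scale, on the other side of 0. The intervals of 5 genes excluded 0. In 4 of these the level was lower in shYthdf2+EV (*Dcp1a*, *Dcp1b*, *Xrn1* and *Pan2*), and in *Ddx6* it was higher. Here and below, the share of all genes whose interval excludes 0 was not computed. Such counts therefore cannot be called particular to the 10 genes.

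The decapping enzyme and its direct activators are taken first. *Dcp2* (mm39 chromosome 18, 44513567 to 44558036, plus strand), the gene of the catalytic subunit, had 6621 reads in shscr+EV, 7759 in shYthdf2+EV, 6171 in shYthdf2+WT and 6733 in shYthdf2+Mut. Its log2 ratio on knockdown was 0.043 (-0.024 to 0.11). *Dcp2* was lowest in shYthdf2+WT, with a log2 ratio of -0.20 (-0.27 to -0.13) against shYthdf2+EV, which became -0.043 when corrected. *Dcp1a* (chromosome 14, 30201443 to 30249013, plus strand), which codes for the DCP2 activator that forms the holoenzyme, counted 2682 reads in shscr+EV, 2593 in shYthdf2+EV, 2664 in shYthdf2+WT and 2507 in shYthdf2+Mut. The knockdown library held 85.0% of the control level, a log2 ratio of -0.23 (-0.35 to -0.12) and a corrected value of -0.18. Against shYthdf2+EV it was higher with the wild-type construct, at 0.17 (0.055 to 0.28), and with the mutant construct, at 0.13 (0.016 to 0.24), with corrected values of 0.19 and 0.055. Against shscr+EV the intervals of both rescue libraries held 0, at -0.069 (-0.18 to 0.042) for the wild-type and -0.11 (-0.22 to 0.0060) for the mutant construct.

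*Dcp1b* (chromosome 6, 119152214 to 119198575, plus strand) codes for the paralog of DCP1A and was the gene that differed most. It had 221 reads in shscr+EV, 129 in shYthdf2+EV, 165 in shYthdf2+WT and 218 in shYthdf2+Mut. The shYthdf2+EV library was thus the lowest, shYthdf2+WT intermediate, and shYthdf2+Mut close to shscr+EV. The log2 ratio on knockdown was -0.96 (-1.44 to -0.51), or 51.4% of the control level. It was 0.93 (0.49 to 1.41) for the mutant and 0.48 (-0.0046 to 0.98) for the wild-type construct, both against shYthdf2+EV, and the second of these intervals reached 0. Both comparisons share the shYthdf2+EV library. Against shscr+EV, *Dcp1b* was at 71.7% with the wild-type construct (log2 ratio -0.48, -0.91 to -0.057) and at 98.0% with the mutant construct (-0.029, -0.42 to 0.37). The corrected value on knockdown was -0.93, and against shYthdf2+EV it was 0.93 for the mutant and 0.42 for the wild-type construct. The low counts give wide intervals. For shYthdf2+Mut against shYthdf2+WT the log2 ratio was 0.45 (0.033 to 0.89), with a corrected value of 0.50.

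The balance of the paralogs followed from this. *Dcp1b* took 7.61% of the reads of *Dcp1a* and *Dcp1b* in shscr+EV and 4.74% in shYthdf2+EV, with 95% Wilson intervals of 6.33 to 9.06 and 3.70 to 5.96. It took 5.83% with the wild-type construct (4.70 to 7.14) and 8.00% with the mutant one (6.67 to 9.56). The interval of shYthdf2+EV overlapped neither that of shscr+EV nor that of shYthdf2+Mut. In every library *Dcp1a* was by far the more abundant of the pair.

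Among the scaffolds and cofactors of decapping, *Ddx6* stood out. *Ddx6* (chromosome 9, 44514113 to 44552028, plus strand) codes for a DEAD-box helicase that CNOT1 binds and that links deadenylation to decapping and translational repression. It had 11657 reads in shscr+EV, 15206 in shYthdf2+EV, 11059 in shYthdf2+WT and 13227 in shYthdf2+Mut. Scaled for depth, shYthdf2+EV and shYthdf2+Mut were the highest and shYthdf2+WT the lowest. The log2 ratio on knockdown was 0.20 (0.15 to 0.25), or 115% of the control level. With the wild-type construct it was -0.33 (-0.38 to -0.28) against shYthdf2+EV, a level of 79.4%, and with the mutant construct -0.025 (-0.072 to 0.023). *Ddx6* lies at 43.4% GC, under the median of 49.9%, and its corrected value on knockdown was 0.24. Against shYthdf2+EV the corrected values were -0.19 with the wild-type and -0.13 with the mutant construct, both below 0 and short of the limit. The summed levels of the 2-cell-like and of the primitive endoderm markers were also highest in shYthdf2+EV and shYthdf2+Mut. *Tcstv1* did not follow the first sum, and *Gata4*, highest in shscr+EV, and *Sox17* did not follow the second. None of the primitive endoderm markers averaged 200 reads. The part of these markers in the *Ddx6* values was not tested.

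The other scaffold and activator genes varied less. *Edc4* (chromosome 8, 106607505 to 106619857, plus strand), whose product is a scaffold that brings DCP1 and DCP2 together, had the smallest spread of the 10 genes, with 6366, 7115, 6917 and 6407 reads in shscr+EV, shYthdf2+EV, shYthdf2+WT and shYthdf2+Mut. Its log2 ratio on knockdown was -0.026 (-0.095 to 0.044). *Lsm14a* (chromosome 7, 34043569 to 34089134, minus strand), which codes for a DDX6 partner in P-bodies, had 6041, 6839, 5860 and 6265 reads, and on knockdown its log2 ratio was -0.0070 (-0.078 to 0.065). *Lsm14a* was 0.15 (0.072 to 0.22) higher on the log2 scale in shYthdf2+Mut than in shYthdf2+WT, with a corrected value of -0.0057. *Edc3* (chromosome 9, 57615823 to 57659782, plus strand), an enhancer of decapping that binds DCP2 and DDX6, had 2153, 2266, 2364 and 2154 reads, with a log2 ratio of -0.11 (-0.23 to 0.010) on knockdown and 0.19 (0.069 to 0.31) for shYthdf2+WT against shYthdf2+EV, the latter 0.15 when corrected. In the deposited annotation 672 exon bases of *Edc3* overlap *Clk3*, and reads there were left out of both genes. Such overlaps covered 235 bases of *Lsm14a*, 194 of *Xrn1* and 104 of *Pan2*, each with a Gm-named gene.

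*Xrn1* (chromosome 9, 95836803 to 95939859, plus strand), the gene of the 5′ to 3′ exonuclease, had 3154 reads in shscr+EV, 3309 in shYthdf2+EV, 2883 in shYthdf2+WT and 3146 in shYthdf2+Mut. Scaled for depth, shscr+EV and shYthdf2+Mut were the highest. The log2 ratio was -0.12 (-0.22 to -0.017) on knockdown and -0.19 (-0.29 to -0.084) for shYthdf2+WT against shscr+EV. *Xrn1* has the lowest GC content of the 10 genes, 41.9%, and its corrected value for shYthdf2+WT against shscr+EV was 0.016.

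The PAN2-PAN3 genes differed in direction between the rescue libraries. *Pan2* (chromosome 10, 128135106 to 128157227, plus strand), which codes for the catalytic subunit, had 3141, 3209, 3299 and 2961 reads in shscr+EV, shYthdf2+EV, shYthdf2+WT and shYthdf2+Mut. *Pan3* (chromosome 5, 147363018 to 147485311, plus strand), whose product tethers PAN2 to poly(A)-binding protein, had 1697, 1795, 1627 and 1876 reads. On knockdown both were slightly lower, with log2 ratios of -0.16 (-0.26 to -0.054) for *Pan2* and -0.10 (-0.24 to 0.034) for *Pan3*. For shYthdf2+Mut against shYthdf2+WT, *Pan2* had a log2 ratio of -0.11 (-0.21 to -0.0053) and *Pan3* of 0.25 (0.12 to 0.39). *Pan3* made up 35.1% of the reads of the pair in shscr+EV and 35.9% in shYthdf2+EV, with 95% Wilson intervals of 33.2 to 37.0 and 34.0 to 37.8. The share was 33.0% with the wild-type construct (31.2 to 34.9) and 38.8% with the mutant one (36.9 to 40.8), whose intervals did not overlap. *Pan3* (47.1% GC) and *Pan2* (51.7% GC) lie on either side of the median GC content, and their corrected values for mutant against wild-type were 0.097 and -0.11. Against shYthdf2+EV, *Pan3* was higher in shYthdf2+Mut by a log2 ratio of 0.24 (0.11 to 0.37).

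**Figure D2:**
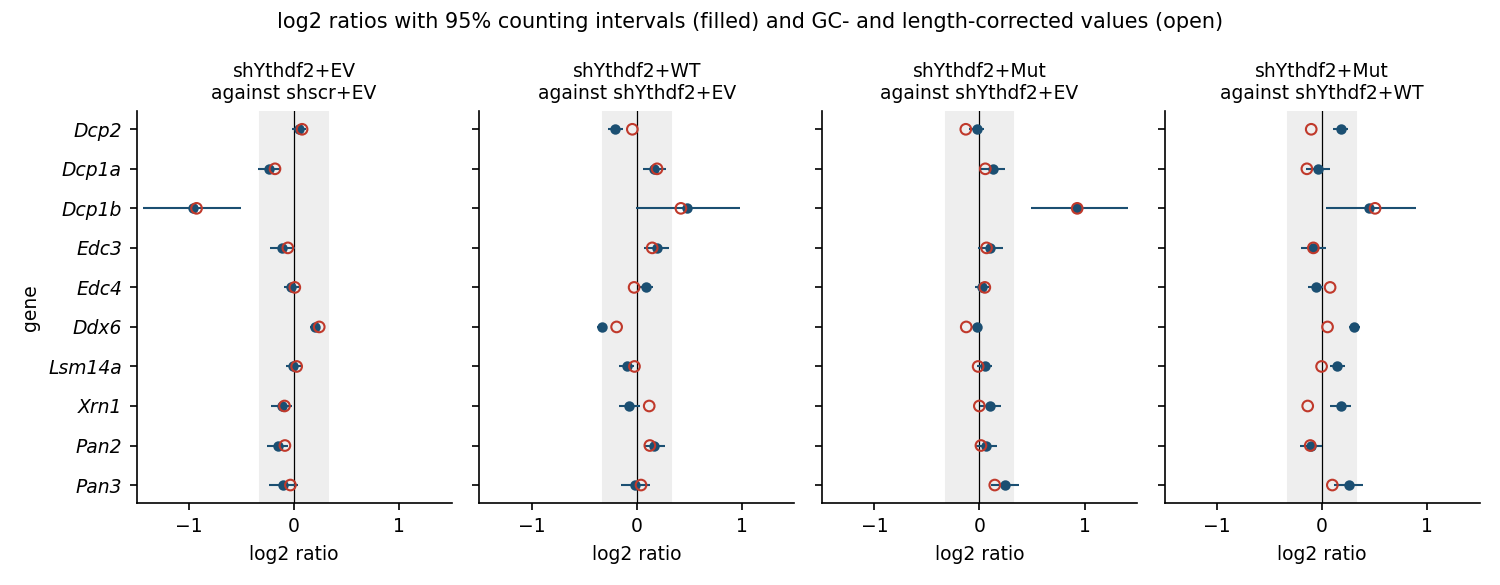
log2 ratio of each gene in the 4 comparisons, with 95% intervals for counting error (filled points and bars) and the corrected value (open circles). The grey band marks log2 ratios within 0.32 of 0. On knockdown 9 genes lie in the band and *Dcp1b* lies at -0.96, while against shYthdf2+EV only *Ddx6* (-0.33) and *Dcp1b* (0.48) leave the band in shYthdf2+WT and only *Dcp1b* (0.93) in shYthdf2+Mut.

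With the wild-type construct, shYthdf2+WT against shYthdf2+EV, 1 of the 9 genes was called lower, *Ddx6*, and none higher. The shares of all genes were 12.7% lower and 13.4% higher. The median over the 10 genes was 0.036 (corrected 0.079), with 5 genes above 0 and 5 below. For all genes it was -0.0018 (corrected -0.00086), with 5375 above 0 and 5442 below. The intervals of *Dcp1a*, *Edc3*, *Edc4* and *Pan2* lay above 0, and those of *Dcp2*, *Ddx6* and *Lsm14a* below it. Corrected, *Edc4* was at -0.026 in place of 0.086, *Lsm14a* at -0.022 in place of -0.096, *Dcp2* at -0.043 and *Xrn1* at 0.12 in place of -0.072. *Ddx6* lay just past the limit, and under upper-quartile scaling or by the corrected values none of the 9 genes passed it. By the corrected values 1166 of 10512 genes were called higher and 1048 lower.

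With the mutant construct, shYthdf2+Mut against shYthdf2+EV, none of the 9 genes was called in either direction. Of all genes 3.48% were called higher and 7.89% lower. The median over the 10 genes was 0.082, with 8 above 0 (6 by the corrected values). Of all 10817 genes, 5823 lay above 0, with a median of 0.017. The intervals of 4 of the 10 genes (*Dcp1a*, *Dcp1b*, *Xrn1* and *Pan3*) lay above 0. The median of the corrected values was 0.032 for the 10 genes and 0.024 for all genes. Corrected, *Xrn1* was at -0.0014 in place of 0.10, *Dcp1a* at 0.055, *Pan3* at 0.15 and *Dcp2* at -0.13 in place of -0.028.

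The direct comparison of the constructs, shYthdf2+Mut against shYthdf2+WT, compares libraries that both carried a *Ythdf2* hairpin and a YTHDF2 construct. None of the 9 genes was called, whereas 17.5% of all genes were called higher and 19.5% lower. The median was 0.16 over the 10 genes and 0.0063 over all genes. *Ddx6*, just short of the limit, had a log2 ratio of 0.31 (0.26 to 0.36). Of the 6 genes under the median GC content, 5 were higher with the mutant construct, against 1 of the 4 over it. The median of the corrected values was -0.045 for the 10 genes, with 4 above 0 and 6 below, and 0.014 for all genes. Corrected, *Ddx6* was at 0.051.

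**Figure D3:**
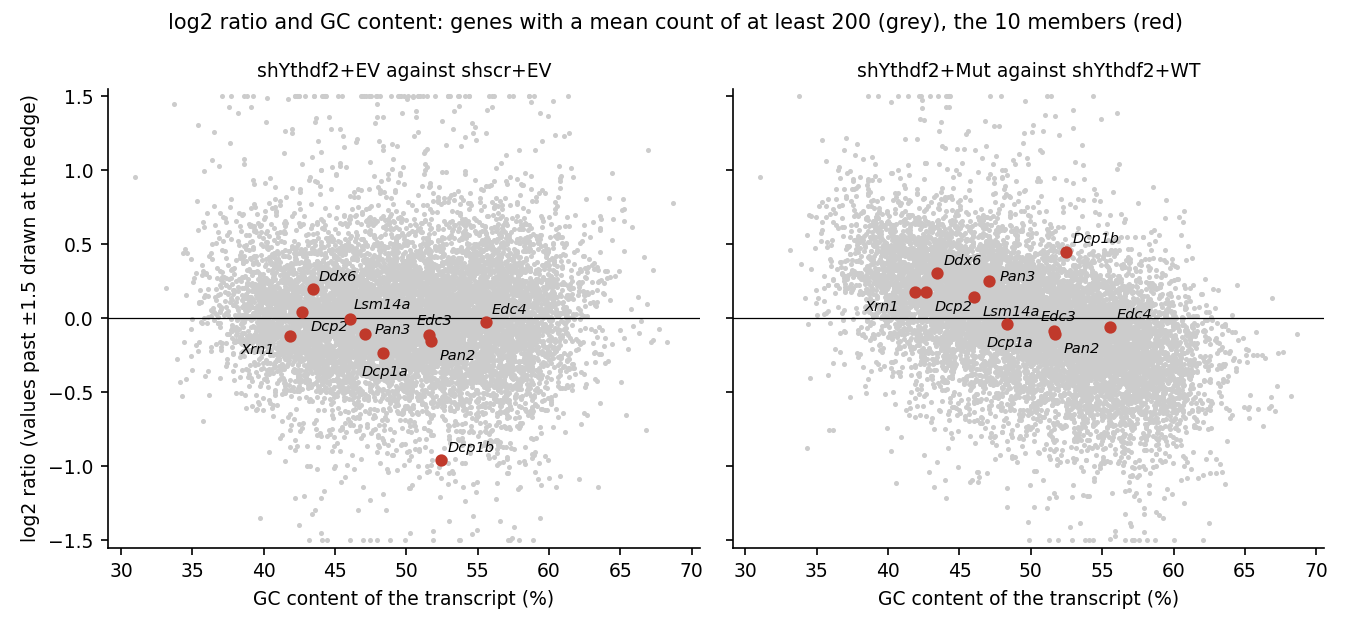
log2 ratio against the GC content of the transcript in percent, for genes with a mean of at least 200 reads (grey) and the 10 decapping and decay genes (red), for the knockdown (left) and the mutant against the wild-type construct (right). The grey cloud is level on the left (Spearman coefficient -0.027) and slopes down on the right (-0.52), where *Ddx6*, *Dcp2*, *Xrn1*, *Lsm14a* and *Pan3*, all under 49.9% GC, lie above 0. Off this slope on the right, *Dcp1b* (52.5% GC) lies at 0.45 and *Dcp1a* (48.3% GC) at -0.038. The coefficient of the 10 genes there is -0.37.

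The rest of the mRNA decay machinery was set beside these genes through 5 lists, of which only genes with a mean of at least 200 reads were counted. That left out *Patl2*, *Nudt16*, *Exosc6* and *Ago4*. The counts stand against 16.2% of all genes called higher and 15.1% lower on knockdown, and against 17.5% and 19.5% for mutant against wild-type. Counts by the corrected values stand against 1598 of 10512 genes called higher and 1530 lower on knockdown. For mutant against wild-type, 1259 and 1309 of the 10512 were. The lists hold 6 to 15 counted genes each. The LSM1-7 ring and the PAT1 proteins, which bind shortened tails and recruit the decapping enzyme, had 3 of 8 genes called higher on knockdown and none lower, with a median log2 ratio of 0.16. By the corrected values 1 of the 8 was called, with a median of 0.13. *Lsm7*, a subunit of the ring, had the largest value, with 773 reads in shscr+EV, 1327 in shYthdf2+EV, 1244 in shYthdf2+WT and 743 in shYthdf2+Mut. Its log2 ratio was 0.59 (0.41 to 0.78) on knockdown and -0.69 (-0.88 to -0.50) for mutant against wild-type, and it was lower in shscr+EV and shYthdf2+Mut than in the other 2 libraries. The corrected values of *Lsm7* were 0.35 and -0.072. The sum of the ESC markers was likewise lower in shscr+EV and shYthdf2+Mut. This held for *Dppa5a*, *Pou5f1* and *Sox2* but not for *Nanog*, *Esrrb* and *Zfp42*, and the part of these markers was not tested. For mutant against wild-type, 4 of the 8 genes were called lower, with a median of -0.29. By the corrected values 2 were, with a median of -0.096.

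Other decapping and P-body genes had 4 of 10 higher and 1 lower on knockdown, with a median of 0.17. *Eif4e2*, which codes for a cap-binding protein of translational repression, had 4589, 7254, 6036 and 5712 reads in shscr+EV, shYthdf2+EV, shYthdf2+WT and shYthdf2+Mut, and a log2 ratio of 0.47 (0.40 to 0.55) on knockdown. *Xrn2*, the nuclear relative of *Xrn1*, had 7360 reads in shscr+EV and 5959, 5759 and 5891 in the libraries with the *Ythdf2* hairpin. Its log2 ratio on knockdown was -0.49 (-0.56 to -0.42). *Nudt3*, the gene of a Nudix hydrolase with decapping activity, had 1580 and 2324 reads without and with knockdown, and 2150 and 1677 reads in shYthdf2+WT and shYthdf2+Mut. For mutant against wild-type its log2 ratio was -0.31 (-0.44 to -0.18), corrected -0.058, and none of the 10 genes was called.

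The CCR4-NOT and TOB genes had none of 13 called on knockdown, with a median of -0.022. For mutant against wild-type 4 of the 13 were called higher, with a median of 0.29. By the corrected values 1 was, with a median of 0.042. *Cnot2* had the largest of these values, with 3464 reads in shYthdf2+WT against 4614 in shYthdf2+Mut (4100 and 4593 in shscr+EV and shYthdf2+EV), a log2 ratio of 0.46 (0.37 to 0.55) and a corrected value of 0.23. The exosome and SKI genes, which serve decay from the 3′ end, had 2 of 15 called higher on knockdown (1 by the corrected values) and none lower, with a median of -0.016. *Exosc4* had the highest ratio among them, at 0.50 (0.25 to 0.76), with 405 reads in the control, 651 on knockdown, and 556 and 415 in shYthdf2+WT and shYthdf2+Mut. *Dis3l*, a cytoplasmic exosome nuclease, had 856 reads in shYthdf2+WT and 1084 in shYthdf2+Mut (956 and 1011 in shscr+EV and shYthdf2+EV), a log2 ratio of 0.39 (0.20 to 0.58) and a corrected value of 0.46. It was the 1 gene of this list called higher for mutant against wild-type, and 2 were called lower, none of them by the corrected values. Of the Argonaute and TNRC6 genes, 1 of 6 was lower on knockdown, *Ago3*, at -0.48 (-0.66 to -0.31), with 1202, 980, 979 and 1006 reads. *Ago2* had 5007 reads in shYthdf2+WT and 6431 in shYthdf2+Mut (5144 and 6400 in shscr+EV and shYthdf2+EV), a log2 ratio of 0.41 (0.33 to 0.49) and a corrected value of 0.31. It was 1 of 2 genes of the 6 called higher in that comparison, and by the corrected values none was. All 6 lay above 0 there, with a median of 0.176, or 0.185 by the corrected values.

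**Figure D4:**
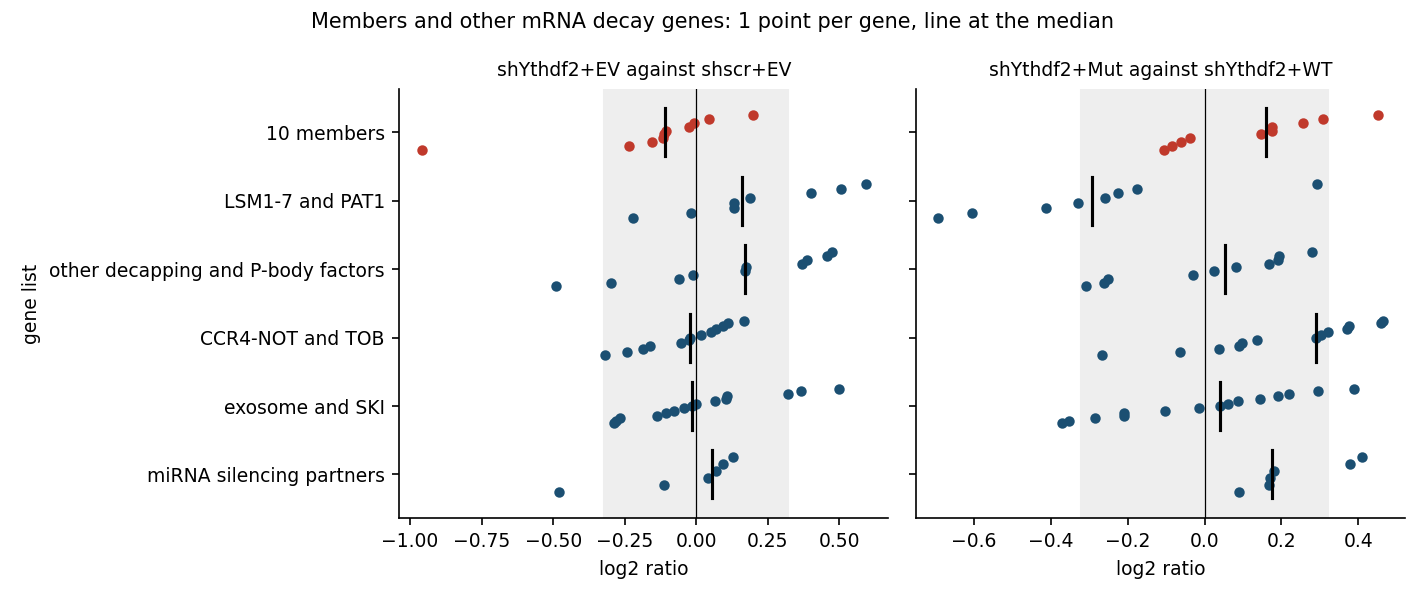
log2 ratio of the 10 decapping and decay genes (red) and of 5 lists of other mRNA decay genes (blue, those with a mean of at least 200 reads), 1 point per gene, with a line at each median and a grey band for log2 ratios within 0.32 of 0. On knockdown (left) the median is -0.11 for the 10 genes and 0.16 for LSM1-7 and PAT1, and for mutant against wild-type (right) it is 0.16 and -0.29, which the correction changed to -0.045 and -0.096.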

How the data were processed

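The deposited table holds raw read counts per gene for 4 poly(A)+ RNA-seq libraries, which the authors counted with featureCounts 2.0.3, per the file headers, on exons of the UCSC mm39 RefSeq annotation, unstranded, with reads of several places or genes left out. Reads rather than pairs were counted, and although the kit marks strand, sense and antisense reads cannot be told apart in these counts. The submitters' processing notes list fastp 0.19.4, HISAT2 2.2.1, DESeq2 1.40.2 and mm10, while the header names mm39. Exon length is the other deposited value. The study's methods describe 2 replicates, but the labels give 1 library per group, so no test was made. The label of the mutant library spells the gene shYtdhf2.

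Counts were scaled with TMM factors (edgeR 4.0.16, R 4.3.3) from genes averaging 10 counts or more. A prior count of 0.5 was added before log2 ratios were taken. Intervals (SciPy 1.17.1) were computed on read pairs. A gene was called at a log2 ratio of 0.32 or more in either direction, among genes averaging 200 counts or more. FPKM used TMM-scaled depth and exon length. GC content came from GENCODE vM21 transcripts on mm10, for 97.2% of the genes. The correction subtracted a local regression on GC content, then on exon length (statsmodels 0.14.6), and the scripts were tested on simulated data. Named genes were all 10, *Ythdf2*, and in each list the called genes with the largest rise and fall on knockdown and the gene with the largest absolute mutant to wild-type ratio. The genes and lists were chosen with earlier results of these data known. The alternatives were scaling by totals, by upper quartiles or with DESeq2 1.42.0, a prior count of 5, the correction, summed counts, log2(FPKM + 0.1), folds of 1.5 and 2, an interval that excludes 0, and mean counts of at least 10 or 1000.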

Additional observations from a re-analysis of the deposited data

How the results depend on the processing

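Across 48 results and their alternatives, 272 values were computed. Of these, 248 stayed within the counting interval (for a median, that of the middle genes) or within 1.5 times of a count, 24 moved further, and no value past the limit changed direction. Of the 200 values for single genes, 14 moved, all under the correction for GC and length. On knockdown, the median of -0.11 became -0.065 by total counts, -0.047 under the correction and 0.014 when counts were summed. For shYthdf2+WT against shYthdf2+EV, the median of 0.036 became -0.097 when the counts of the 10 genes were summed, in which *Ddx6* weighs most. The 1 gene past the limit there became 0 under upper-quartile scaling, the correction, or a fold of 1.5 or 2. With a mean count of at least 10, which admits *Dcp1b*, the number past the limit was 1 on knockdown, 2 with the wild-type construct, 1 with the mutant construct and 1 for mutant against wild-type. For mutant against wild-type, the median of 0.16 became -0.045 under the correction. The median over the 9 genes with at least 200 reads, chosen after seeing the data, stayed within that interval in each comparison, although for shYthdf2+WT against shYthdf2+EV it lay at -0.015, on the other side of 0. No paired analysis was possible because each group has 1 library, and for the same reason no library could be left out. Depth limits *Dcp1b* most, and with 1 library per group none of the differences can be told apart from variation between cultures.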
